A study of Mus musculus with 661 samples.

Results

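Cluster M5 is the set of bone marrow stromal cells that carries label 5 in the study's clustering of its non-endothelial cells, and its working name is an osteoprogenitor cluster. The cells were chosen by that label, after leaving out cells in which Il1b, an inflammatory cytokine gene of myeloid cells, reached 1000 CPM, counts per 1000000 nuclear-gene counts of a cell. This kept 57 of the 65 labelled cells, of 354 mesenchymal and 307 endothelial cells in the series. The study asked how the marrow stroma of C57BL/6 wild-type mice changes with age, and sorted single cells into plates from 3 young mice, about 2 months old, and 4 old mice, about 24 months old. The sort left out CD45+ and Ter119+ blood cells and split mesenchymal from CD31+ endothelial cells. Mesenchymal cells came from 4 gates: Sca-1+ MSC-S, PDGFRα+ mOPr and PDGFRα- OPr from the endosteum, the inner bone surface, and LepR+ MSC-L from central marrow. M5 cells were compared with the cells of labels 1 and 2 (M1-M2, 136 cells) and of labels 6 to 16 (M6-M16, 124 cells). Labels 3 and 4 hold the other 29 mesenchymal cells. The labels name no mouse for a cell, so each group of cells was 1 sample without replicates. No test was therefore made, and no difference below was checked against a spread between mice.

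Osteoprogenitors are mesenchymal cells of the bone surface that are committed to become osteoblasts, the cells that make bone. Runx2 and then Sp7 (osterix) switch on the bone programme, type I collagen is laid down as the scaffold, and late genes such as Ibsp and Bglap (osteocalcin) accompany its mineralization. Neighbouring stromal cells of marrow and bone include Cxcl12-rich LepR+ cells with adipogenic genes, Sca-1+ fibroblasts around arterioles, and cells of cartilage, tendon and joint lining.

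Levels are CPM of a group's summed nuclear-gene counts, mitochondrial genes left out, so cells with more counts weigh more. A ratio is the log2 of M5 over a comparison group after adding 1 CPM to both. A gene was called when its ratio passed 1 or -1. Intervals are 95% intervals, exact Poisson for levels and exact Clopper-Pearson for shares. The reads come from PCR without molecular identifiers, so the intervals cover counting error only. A list's interval is an order-statistic interval over its genes, which are not replicates. A cell was said to have a gene at 10 CPM or more.

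The Il1b cutoff fell in a gap. Of the 57 M5 cells, 47 had 0 Il1b counts, and the highest of the other 10 was Old OPr 3 at 61.5 CPM, from 5 counts. The nearest cell outside was Old OPr 11 at 1229 CPM, and the 8 cells left out ran up to 29522 CPM in Old OPr 2. All 8 were old OPr cells with 9 to 14 of 15 hematopoietic markers. Their Ptprc, which encodes the CD45 antigen that the sort gates against, lay between 324 and 2875 CPM. Col1a1, the main chain of type I collagen, was at 0 to 2.34 CPM in these 8 cells. In the 57 M5 cells, 46 had 0 hematopoietic markers, and the highest number was 7 in Old MSC-L 3. Since Il1b chose the cells, these values describe the choice.

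M5 held cells of each mesenchymal gate and both ages. By gate it had 21 OPr cells (14 young, 7 old), 19 mOPr cells (7 young, 12 old), 13 MSC-S cells (8 young, 5 old) and 4 MSC-L cells (2 young, 2 old). As a share of the cells sorted in each gate, M5 took 28.8% of 73 OPr cells (18.8 to 40.5%) and 36.5% of 52 mOPr cells (23.6 to 51.04%). Its share was 11.0% of 118 MSC-S cells and 3.60% of 111 MSC-L cells. The endosteal OPr and mOPr gates thus gave 40 of the 57 cells. Old cells were 26 of 57, or 45.6% (32.4 to 59.3%), against 58.8% (50.1 to 67.2%) in M1-M2 and 42.7% (33.9 to 51.9%) in M6-M16. Within OPr, M5 took 31.8% of 44 young and 24.1% of 29 old cells. The 29 include the 8 cells left out for Il1b. Without them the old share was 33.3% of 21 cells (14.6 to 56.97%), and by label alone it was 51.7% of 29, so its order against the young share rests on that choice. Within mOPr, it took 26.9% of 26 young and 46.2% of 26 old cells, so the ages were not spread evenly over the gates inside M5. The cell labels carry library numbers in 2 ranges. The first range held 16 M5 cells (10 old, 6 young) and the second 41 (16 old, 25 young).

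The M5 cells spanned a wide depth. Total counts ran from 58034 to 1168443 with a median of 394695, against medians of 410956 in M1-M2 and 671998 in M6-M16. A median M5 cell had 2978 genes at 10 CPM or more (255 to 5810), fewer than the 4300 of M1-M2 and the 4443.5 of M6-M16. Mitochondrial genes took a median of 1.88% of counts and at most 13.1%, against 1.38% and 1.30%. Within M5 the median mitochondrial share was highest in young OPr cells, at 5.62%. It was 2.83% in old OPr, 1.501% in young mOPr and 1.31% in old mOPr cells. Old and young M5 cells had like depths, with median totals of 402410 and 394695. Shares of cells that are set against other groups below were also taken after thinning each cell to 100000 nuclear counts. That step left out 4 M5 cells and 1 M1-M2 cell with fewer counts. Thinned shares are not given for every list. Where they are missing, a share was not separated from the fewer genes found per M5 cell.

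The first question was whether M5 carries the genes its label implies. Of the 4 label markers, Col1a1 was found in most cells, and the other 3 in fewer. Over the 57 cells Col1a1 ranged from 0 to 101996 CPM with a median of 417, and 45 cells had it at 10 CPM or more. The summed level was 6914 CPM (6882 to 6947), against 173 in M1-M2, 1586 in M6-M16 and 23.02 in endothelial cells, which gave ratios of 5.31 and 2.12. By cell the order against M6-M16 was the other way. The M6-M16 median was 533 CPM, and 90.3% of its cells had Col1a1 at 10 CPM or more, against 78.9% in M5. In M1-M2 this share was 72.1%. The thinned shares were 83.02% in M5, 92.7% in M6-M16 and 76.3% in M1-M2. A single cell, Young mOPr 21, held 30.2% of the M5 Col1a1 counts, and 24 cells reached 1000 CPM. Bglap, the secreted hormone and matrix protein of mature osteoblasts, had a median of 0 and a highest value of 14389.6 CPM, with 19 cells at 10 CPM or more. Its summed level was 608 CPM (599 to 618), against 5.74 in M1-M2, 3.04 in M6-M16 and 5.09 in endothelial cells. The ratios were 6.498 and 7.24, and 5.57 and 6.31 without Young mOPr 21, which held 48.4% of the counts. Bglap, Bglap2 and Bglap3 are near-identical copies, so how reads were divided among them is uncertain. Among the 13 groups of at least 5 cells, M5 had the highest summed Col1a1 and Bglap. The 4 cells of M14, which were not ranked, had Col1a1 at 8828 CPM. Bglap was more evenly spread in M3, with 87.5% of cells at 10 CPM or more and a level of 273 CPM.

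The other 2 label markers were not highest in M5. Ibsp, a mineral-binding glycoprotein of bone matrix, had a cell median of 10.3 and a highest value of 17378 CPM, with 29 cells at 10 CPM or more. At 734 CPM (723 to 744) its summed level was below the 4672 of M1-M2 and above the 238 of M6-M16, with ratios of -2.67 and 1.62. Endothelial cells, which should lack it, stood at 275 CPM, and M5 ranked the fifth of the 13 groups, with the 4 unranked M14 cells at 2979 CPM. Old mOPr 23 held 35.3% of the counts, and without it the ratios were -3.28 and 1.02. Within the first library-number range the ratio to M6-M16 was 0.01. Sp7, the transcription factor that commits cells to the osteoblast fate, was found in few M5 cells. It had a median of 0 and a highest value of 298 CPM, and 6 cells had it at 10 CPM or more. The summed 19.3 CPM (17.7 to 21.1) lay between 89.9 in M1-M2 and 4.40 in M6-M16, with ratios of -2.16 and 1.91, again the fifth of the 13 groups, with the 1 unranked M10 cell at 86.7 CPM. The 6 Sp7 cells were Old mOPr 23, Young OPr 11 and 33, and Young mOPr 1, 12 and 21.

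**Figure D1:**
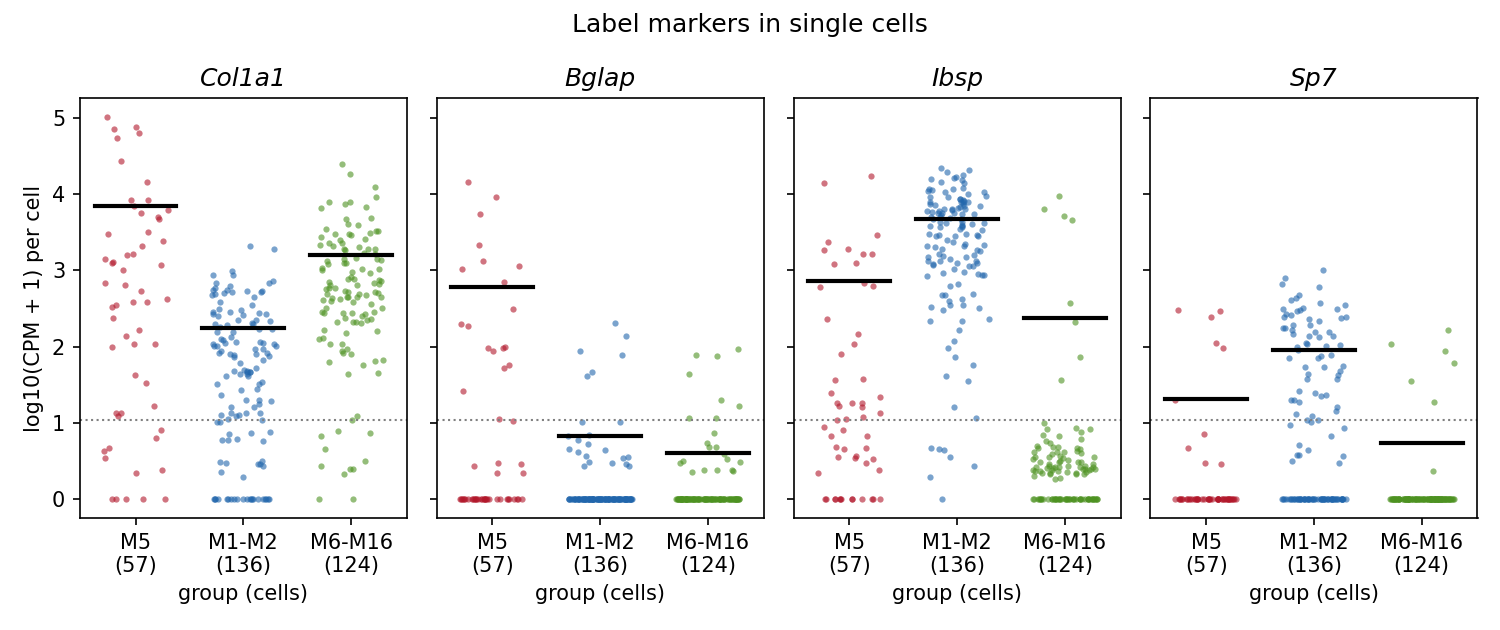
Each point is 1 cell, with log10(CPM + 1) of a label marker on the y axis for M5, M1-M2 and M6-M16; the black bar is the level from summed counts and the dotted line marks 10 CPM. Col1a1 reached 10 CPM in 45 of 57 M5 cells, while Sp7 did so in 6.

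Counted cell by cell, 6 M5 cells had 0 of the 4 label markers, 20 had 1, 18 had 2, 9 had 3 and 4 had all 4. The cells with all 4 were Old mOPr 23, Young OPr 11, Young mOPr 1 and Young mOPr 21. A share of 50% or more of the markers was present in 54.4% of M5 cells, against 76.5% of M1-M2 and 12.1% of M6-M16 cells. After thinning, these shares were 62.3%, 83.7% and 33.1%. Among the 307 endothelial cells, 250 had 0 markers and 0 had all 4. The data thus go partly against the label, since 26 of 57 cells had at most 1 marker and Sp7 was below 10 CPM in 51. The cells are called M5 cells here. By gate, Col1a1 was present in 18 of 19 mOPr, 13 of 21 OPr, 10 of 13 MSC-S and 4 of 4 MSC-L cells. Bglap was present in 9 mOPr, 5 OPr, 4 MSC-S and 1 MSC-L cells, the last at 10.3 CPM from 1 count, and Sp7 in 4 mOPr and 2 OPr cells. Ibsp was present in 12 OPr, 10 mOPr, 3 MSC-S and 4 MSC-L cells.

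The 4 markers lie on different chromosomes of the GRCm38 mouse genome. Col1a1 (ENSMUSG00000001506.10) is at 94936224 to 94953042 of chromosome 11, and Sp7 (ENSMUSG00000060284.7) at 102356606 to 102367182 of chromosome 15. Bglap (ENSMUSG00000074483.2) is at 88383501 to 88384464 of chromosome 3, and Ibsp (ENSMUSG00000029306.8) at 104299171 to 104311469 of chromosome 5. Promoters from 250 bases before to 50 after the start were held for 2 of the 4 markers, from RefSeq on GRCm38.p6, and they are shown because these genes mark the mineralizing end of the programme. They were searched on both strands for ACCACA, the core letters that Runx2 binds, and for TATAAA, the TATA box. Among 32851 promoters of this length, 16.8% held ACCACA and 13.6% TATAAA. The Bglap promoter, chr3:88384417-88384716 on the minus strand, held 1 of each. The Ibsp promoter, chr5:104299037-104299336 on the plus strand, held 0 ACCACA and 1 TATAAA, read as TTTATA. Capitals mark the matches, which describe the letters alone.
Bglap promoter: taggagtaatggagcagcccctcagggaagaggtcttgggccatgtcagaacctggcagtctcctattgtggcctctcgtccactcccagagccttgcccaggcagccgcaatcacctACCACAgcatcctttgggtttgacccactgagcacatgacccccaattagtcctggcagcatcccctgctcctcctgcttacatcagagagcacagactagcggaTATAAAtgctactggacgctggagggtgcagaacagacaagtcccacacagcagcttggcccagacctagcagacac
Ibsp promoter: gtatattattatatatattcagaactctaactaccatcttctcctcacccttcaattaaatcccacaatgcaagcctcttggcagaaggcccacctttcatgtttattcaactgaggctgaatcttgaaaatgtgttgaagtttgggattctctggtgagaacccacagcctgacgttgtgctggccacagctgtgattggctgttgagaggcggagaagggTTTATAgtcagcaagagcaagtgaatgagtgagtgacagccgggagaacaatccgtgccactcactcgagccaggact

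The next question was how far the rest of the bone programme follows the markers. Over the lists of osteoblast regulators, bone matrix and mineralization genes, 43 of 46 genes passed the count filter. Their median ratio was 0.82 (0.17 to 1.57) against M1-M2 and 0.52 (0.11 to 2.24) against M6-M16, where the medians of the 16991 genes compared were -0.15 and 0.10. Against M1-M2, 19 of the 43 were called higher and 8 lower, beside 18.1% and 25.4% of all genes compared. Against M6-M16, 21 were called higher and 4 lower, beside 19.8% and 14.7%. Leaving out the cell with most counts of each gene gave medians of 0.27 and 0.14. That step removes counts from M5 alone, so each ratio can only fall, and the all-gene medians fell as well, to -0.77 and -0.44. Values without top cells against M1-M2 and M6-M16 are read beside these. In the 2 library-number ranges the medians were 0.87 and 0.77 against M1-M2, and 0.36 and 0.93 against M6-M16. Other ways of scaling moved the all-gene median against M1-M2 by -0.23 (mean of cell CPM), -0.34 (size factors) and -0.18 (thinned counts). Against M6-M16 the same shifts were -0.17, -0.30 and -0.12. Setting genes at 0 counts to their bound left the list medians given here as they were.

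Among the 15 regulators, the factors that start and steer the bone programme, the median ratio was 0.48 against M1-M2, with 4 called higher and 3 lower, and it was slightly below 0 under size factors. It was 0.40 and -0.30 in the 2 library-number ranges. Against M6-M16 it was 0.35, with 6 called higher and 2 lower, and 0.54 and 0.66 in the ranges. Without each gene's top cell both medians were near 0, at -0.02 and -0.03. Runx2, the master regulator, ranged over the 57 cells from 0 to 3259.9 CPM and was present in 23. Its level was 194 CPM, against 405 in M1-M2 and 23.9 in M6-M16, with ratios of -1.06 and 2.97. Old OPr 10 held 35.3% of the counts, and without it the ratios were -1.65 and 2.38. Within the first library-number range the ratio to M1-M2 was 0.41. Dlx5, a homeobox factor upstream of Runx2 and Sp7, was at 123 CPM in 14 cells, against 56.9 and 19.5 CPM. Mef2c, a factor that drives bone and cartilage maturation, was at 185 CPM in 21 cells, against 85.1 and 20.9 CPM. Atf4, which supports osteoblast amino acid supply, was at 365 CPM and was present in 41 cells. Lef1, a Wnt effector, had 2 counts and the homeobox gene Msx2 had 0. At least 50% of the regulators were present in 7 M5 cells (12.3%), 14 M1-M2 cells (10.3%) and 6 M6-M16 cells (4.84%). At 1 CPM the numbers were 8 of 57, 40 of 136 and 16 of 124, so M5 and M1-M2 change places with the threshold.

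Among the osteoblast lists, the bone matrix list had the highest median ratio to M1-M2. Its 16 compared genes had a median of 1.86 (-0.82 to 4.10), with 10 called higher and 3 lower, and the median was 1.48 and 1.97 in the 2 library-number ranges. The interval spans 0, and the median without each gene's top cell is not given. Young mOPr 21 held 30.2% of the Col1a1, 48.4% of the Bglap and 39.3% of the Bglap2 counts of M5. In shares of cells, given below, M5 lay under M1-M2 at each threshold. Against M6-M16 the median was 0.46 (-0.29 to 2.12), with 7 called higher and 0 lower, and 0.00 and 0.85 in the ranges. The summed level of the list was 29190.6 CPM, against 18062.7 in M1-M2 and 17245.1 in M6-M16. Col1a2, the partner chain of Col1a1, ranged up to 81782 CPM around a median of 729 and was present in 48 cells. At 6238 CPM it compared with 1439 in M1-M2 and 2440.3 in M6-M16, with ratios of 2.11 and 1.35, the second of which was -0.22 in the first library-number range and 0.93 without its top cell, Young mOPr 21. Sparc, a collagen-binding matrix protein, was the most widespread of the matrix genes named here, in 56 cells, with a cell median of 2694 CPM. Its summed 7812 CPM gave ratios of 1.67 and 0.46, and the second turned negative under size factors. Spp1 (osteopontin), which binds mineral and integrins, followed the pattern of Ibsp. It was present in 27 cells and its 1965 CPM lay between 4043 in M1-M2 and 457 in M6-M16, with ratios of -1.04 and 2.10. Young mOPr 1 alone, at 41764 CPM, held 31.01% of its M5 counts.

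Smaller matrix proteins were above both groups or below both. Omd (osteomodulin), a keratan sulfate proteoglycan of bone, was at 178 CPM in 19 cells, against 42.1 and 36.9 CPM. Bglap2 stood at 146 CPM in 16 cells, against 2.71 and 2.35 CPM. Postn, a matrix protein of the periosteum and ligaments, depended on 1 cell, at 651 CPM with ratios of 2.98 and 0.47. Young OPr 33 held 54.8% of the Postn counts, and without it the ratios were 1.88 and -0.63. Bgn, a small proteoglycan found in 55 cells, was lower in M5, at 2339 CPM against 4139.9 and 4541 CPM. Lox, which crosslinks collagen, was also lower, at 132 CPM against 339 and 179.8 CPM. As many as 24 of 57 M5 cells had at least 50% of the matrix list, or 42.1%, against 66.2% of M1-M2 and 28.2% of M6-M16 cells. The thinned shares were 50.9%, 74.1% and 45.97%, in the same order. At a threshold of 50 CPM 15 of 57 M5, 56 of 136 M1-M2 and 25 of 124 M6-M16 cells reached this mark. At 1 CPM 41, 124 and 104 of them did, which puts M5 lowest, so the order of M5 and M6-M16 depends on the threshold. The 24 cells were 17 young and 7 old, and included 10 mOPr, 9 OPr, 4 MSC-S and 1 MSC-L cells.

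Mineralization genes, which supply phosphate and place mineral in the matrix, had a median ratio of 0.59 against M1-M2 (5 of 12 called higher, 2 lower). Against M6-M16 it was 2.54 (-0.82 to 3.74), with 8 called higher and 2 lower. These medians were -0.03 and 1.47 without each gene's top cell, and 0.25 and 3.11 against M6-M16 in the 2 library-number ranges. Alpl, the phosphatase that frees phosphate for mineral, ranged from 0 to 4947 CPM and was present in 18 cells. Its 460.5 CPM was near the 409 of M1-M2 and above the 33.6 of M6-M16, with ratios of 0.17 and 3.74. Pth1r, the parathyroid hormone receptor of osteoblasts, was at 389 CPM in 21 cells, against 304 and 72.2 CPM. Ifitm5, a membrane protein made by mineralizing osteoblasts, was at 53.1 CPM in 7 cells, against 1.36 and 0.195 CPM. Phospho1, a phosphatase of matrix vesicles, was close to 0 at 0.793 CPM. Mmp13, a collagenase of bone and growth plate, was at 308 CPM in 6 cells, and Old mOPr 26 held 67.1% of those counts. This list reached 50% in 5 M5 (8.77%), 9 M1-M2 (6.62%) and 1 M6-M16 cells (0.806%). After thinning these shares were 9.43%, 12.6% and 0.806%, and at 1 CPM 8, 49 and 3 cells reached the mark, so M5 is not set above M1-M2 by this count.

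Osteocyte genes, which mark osteoblasts that have become buried in bone, rested on 1 cell for Mepe and Dmp1. Mepe, an inhibitor of mineralization, was found at 10 CPM in Old OPr 24 alone, at 916 CPM, with 100.0% of the M5 counts. Its summed level was 19.1 CPM, against 2.79 in M1-M2, a ratio of 2.41, which became -1.92 without that cell. Against M6-M16, with 3 counts in all, the ratio taken without the added 1 CPM was 9.03 (7.47 to 11.31). With it the ratio was 4.27, and -0.05 without Old OPr 24. The same cell held 83.9% of the counts of Dmp1, a matrix protein of osteocytes, whose ratios were 0.82 and 3.54 with it and -1.45 and 1.27 without it; the ratio of Dmp1 to M1-M2 was also below 0 under size factors. Phex, an enzyme that controls phosphate, was at 48.5 CPM in 6 cells with ratios of -1.998 and 5.43, and 40.2% of its counts were in Old OPr 24, without which the ratios were -2.69 and 4.74. Sost, the secreted Wnt inhibitor of osteocytes, had 2 counts and Fgf23, their phosphate hormone, had 0. Ptprz1, a receptor phosphatase, was at 112 CPM in 13 cells. The list median was 0.82 against M1-M2, with the sign reversed under size factors, and 1.502 against M6-M16, each over 5 genes. Without each gene's top cell these were -1.45 and 0.94. Against M6-M16 the median turned negative when genes needed 100 counts in each of 5 cells.

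Collagen-processing genes, which fold and modify procollagen in the secretory pathway, showed little of the matrix difference. The list median was -0.13 against M1-M2 (4 of 14 called higher, 0 lower), with the sign reversed under the mean of cell CPM and under thinning, and -0.24 against M6-M16 (0 higher, 1 lower). Serpinh1, a collagen chaperone, was at 653 CPM in 43 cells, against 764 and 654 CPM. P4hb, a subunit of prolyl hydroxylase, was present in 54 cells at 768 CPM, against 848 and 1063 CPM. The list reached 50% in 29 of 57 M5 cells, 118 of 136 M1-M2 cells and 122 of 124 M6-M16 cells. These counts were not separated from the fewer genes found per M5 cell.

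Genes through which osteoblasts control osteoclasts, the cells that resorb bone, had a median ratio of 2.71 (-5.94 to 4.69) over 7 genes against M1-M2. This fell to 0.93 without each gene's top cell and was 0.05 and 2.61 in the 2 library-number ranges. It turned negative when genes needed 100 counts in each of 5 cells. Against M6-M16 the median was -1.26, and -2.16 without each gene's top cell. The wide interval reflects genes at both ends. Tnfsf11 (RANKL), which drives osteoclast formation, was at 0.238 CPM in M5, against 75.2 in M1-M2 and 11.4 in M6-M16. Csf1, the growth factor of osteoclast precursors, was at 109.95 CPM, against 1001 and 265 CPM. Tnfrsf11b (osteoprotegerin), the decoy that binds RANKL, was at 37.7 CPM, against 3.85 and 147 CPM. Young mOPr 22 held 50.4% of the Tnfrsf11b counts.

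Wnt signalling genes, a pathway that promotes osteoblast formation, had a median ratio of 0.54 against M1-M2 (10 of 24 called higher, 5 lower). Against M6-M16 it was 0.41, with 7 higher and 5 lower, and it turned negative under each of the 3 other scalings. Without each gene's top cell the medians were -0.04 and -0.52. Among co-receptors, Lrp4 was at 209 CPM in 21 cells, against 204 and 23.1 CPM. Lrp5 was at 227 CPM in 21 cells, against 102 and 66.05 CPM. Among secreted inhibitors, Frzb was at 85.2 CPM in 9 cells, against 1.80 and 18.5 CPM, and Wif1 at 208 CPM, against 418 and 156 CPM. Sfrp4, another inhibitor, was lower in M5 at 906 CPM, against 1699 and 4846 CPM, and Old OPr 24 held 52.8% of its counts. These 3 inhibitors thus did not move one way.

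BMP signalling genes, whose ligands induce bone, had a median ratio of -0.09 against M1-M2 (8 of 22 called higher, 8 lower). Against M6-M16 it was 0.10 (4 higher, 5 lower), with the sign reversed under each of the 3 other scalings. Bmp6, a ligand with osteogenic activity, was nearly missing from M5, with 0.713 CPM and 0 cells at 10 CPM. M1-M2 stood at 455 and M6-M16 at 46.6 CPM, with ratios of -8.05 and -4.80. Bmp4, a related ligand, was also lower, at 104 CPM against 542 and 126 CPM. Bmp3, a ligand that restrains bone formation, was higher, at 91.3 CPM against 20.2 and 2.41 CPM. Id3, a common target of BMP receptors, was at 1424 CPM in 45 cells, against 1010.1 and 747 CPM. Chrdl1, a secreted BMP antagonist, was at 53.7 CPM, against 1581 in M1-M2 and 270.0 in M6-M16. The BMP list reached 50% in 4 of 57 M5, 79 of 136 M1-M2 and 17 of 124 M6-M16 cells.

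M5 cells were then set against the gene programmes of other mesenchymal cells, to see which of them M5 shares. The programme of LepR+ stroma with adipogenic genes was nearly uniform in its difference from M1-M2. All 15 of its genes were lower in M5, with a median ratio of -4.22 (-5.56 to -2.91) and summed levels of 2150.5 CPM in M5 and 63431 in M1-M2. It was -6.22 and -3.76 in the 2 library-number ranges, and -5.09 without each gene's top cell. Cxcl12, the chemokine that holds blood stem cells in marrow, was present in 51 M5 cells but at a cell median of 47.9 CPM. Its summed 921 CPM compared with 43556 in M1-M2 and 511 in M6-M16, with ratios of -5.56 and 0.85. Young MSC-L 21 held 64.3% of the counts, and without it the ratios were -7.03 and -0.62. Lepr, the leptin receptor used for the sort, was at 137 CPM in 20 cells, with ratios of -4.45 and -0.36. Adipoq, an adipocyte hormone, was at 90.5 CPM in 4 cells, with ratios of -4.10 and 6.15, and Young MSC-L 21 held 50.4% of its counts, without which the ratios were -5.08 and 5.17. A share of 50% of this list was reached in 3 of 57 M5 cells, 134 of 136 M1-M2 cells and 1 of 124 M6-M16 cells. The 3 were Old MSC-L 39, Young MSC-L 21 and Young MSC-S 35.

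The fibroblast programme of MSC-S cells placed M5 between its comparison groups. Its median ratio was 4.57 (3.19 to 6.15) against M1-M2, with 14 of 15 genes called higher, and -1.81 (-2.83 to -1.03) against M6-M16, with 12 called lower. In the 2 library-number ranges these were 5.18 and 3.75, and -1.54 and -2.47, and the second was -2.55 without each gene's top cell. The summed levels were 29062.6 CPM in M5, 1590.8 in M1-M2 and 47853.6 in M6-M16. Dcn (decorin), a proteoglycan that binds collagen fibrils, had a cell median of 3341 and a highest value of 69989.6 CPM, and was present in 48 cells. Its summed 14349.5 CPM compared with 800.4 and 20245 CPM, with ratios of 4.16 and -0.50. Clec3b, a plasminogen-binding protein of fibroblasts, was at 49.8 CPM in 7 cells, with ratios of 5.53 and -1.81, and 4.79 and -2.55 without its top cell. Ly6a, which encodes Sca-1, was at 134 CPM in 13 cells, against 6.08 and 962 CPM. Cd34, a sialomucin of fibroblast progenitors, was at 209 CPM in 17 cells, against 0.853 and 592 CPM. The fibroblast list reached 50% in 11 of 57 M5, 0 of 136 M1-M2 and 91 of 124 M6-M16 cells. The 11 were 8 of the 13 MSC-S and 3 of the 19 mOPr cells, with 0 of 21 OPr cells among them.

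Cartilage genes followed, with a median ratio of 4.21 (1.95 to 5.94) against M1-M2 and 14 of 15 called higher. It was 1.78 and 4.56 in the 2 library-number ranges, and 3.12 without each gene's top cell. Against M6-M16 the median was -0.37, and it turned positive under the mean of cell CPM and under thinning. The summed levels were 5759 CPM in M5, 176 in M1-M2 and 6614 in M6-M16. Col2a1, the main collagen of cartilage, was present in 19 cells with a highest value of 5149 CPM. It summed to 274 CPM, with ratios of 4.31 and 0.11, the second negative under size factors, and Young OPr 42 held 58.1% of the counts. Without that cell the ratios were 3.12 and -1.09. Acan (aggrecan), the large proteoglycan of cartilage, was at 137 CPM in 11 cells, with ratios of 5.94 and -0.92, the second -1.40 without its top cell. Comp, a cartilage and tendon matrix protein, was at 2411 CPM in 32 cells, against 70.9 and 4276 CPM. Chad, a matrix protein that binds chondrocytes, was at 2079.8 CPM in 24 cells, against 8.38 and 1092 CPM. Col10a1, the collagen of hypertrophic cartilage, was at 159 CPM, of which 99.8% came from Young OPr 42. The cartilage list reached 50% in 5 M5 cells, each of them young. At 50 CPM 2 cells reached it, and at 1 CPM 19 did, 2 of them old. Young OPr 14, whose 79352 nuclear counts let 1 count pass 10 CPM, had 13 of the 15 genes, Young OPr 18 had 11, Young OPr 27 had 9, and Young OPr 7 and Young MSC-S 34 had 8 each.

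Few M5 cells reached 50% of the tendon or the joint-lining list, at 4 and 3 of 57. The median M5 cell had 2 tendon genes and 1 joint-lining gene at 10 CPM or more. The tendon list had a median ratio of 5.85 (1.68 to 7.96) against M1-M2, with 9 of 9 genes called higher, 3.68 without each gene's top cell, and 7.66 and 3.86 in the 2 library-number ranges. Against M6-M16 it was 0.10, with the sign reversed under each of the 3 other scalings. Tnmd (tenomodulin), a membrane protein of mature tendon cells, was at 264 CPM in 6 cells with ratios of 7.96 and 1.61. Young OPr 7 held 66.9% of its counts, and without that cell the ratios were 6.44 and 0.09. It also held 65.2% of Scx, the tendon transcription factor, whose 28.7 CPM gave ratios of 4.08 and 0.34. Without the cell these were 2.71 and -1.04, and the second was below 0 under each of the 3 other scalings. Cells with at least 50% of the tendon list were Old MSC-S 4, Young MSC-S 34, Young OPr 7 and Young OPr 40. The synovial lining list had a median of 4.90 against M1-M2 (6 of 7 called higher) and -3.18 (-4.74 to -2.12) against M6-M16, where 7 of 7 were called lower. Without each gene's top cell these were 2.82 and -4.83. Prg4 (lubricin), which lubricates joints, was at 5537 CPM in M5, 51.04 in M1-M2 and 50193 in M6-M16. Old MSC-S 24 held 50.1% of the M5 counts of Prg4. The Prg4 ratios were 6.73 and -3.18, and 5.75 and -4.16 without that cell, and 3 MSC-S cells had at least 50% of this list.

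Put together per cell, few M5 cells reached 50% of more than 1 mesenchymal list. Over the 6 lists of bone matrix, LepR+ stroma, MSC-S fibroblast, cartilage, tendon and synovial lining genes, 17 cells reached 0 lists, 33 reached 1, 4 reached 2 and 3 reached 3. The 17 cells with 0 lists were 12 old and 5 young, and the 3 cells with 3 lists were young. Matrix was the list reached by most cells, 24 of 57. Lists of skeletal muscle, neutrophil, monocyte, osteoclast, B cell, T and NK cell, blood stem cell, basophil and general hematopoietic genes were each reached by 0 cells.

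**Figure D2:**
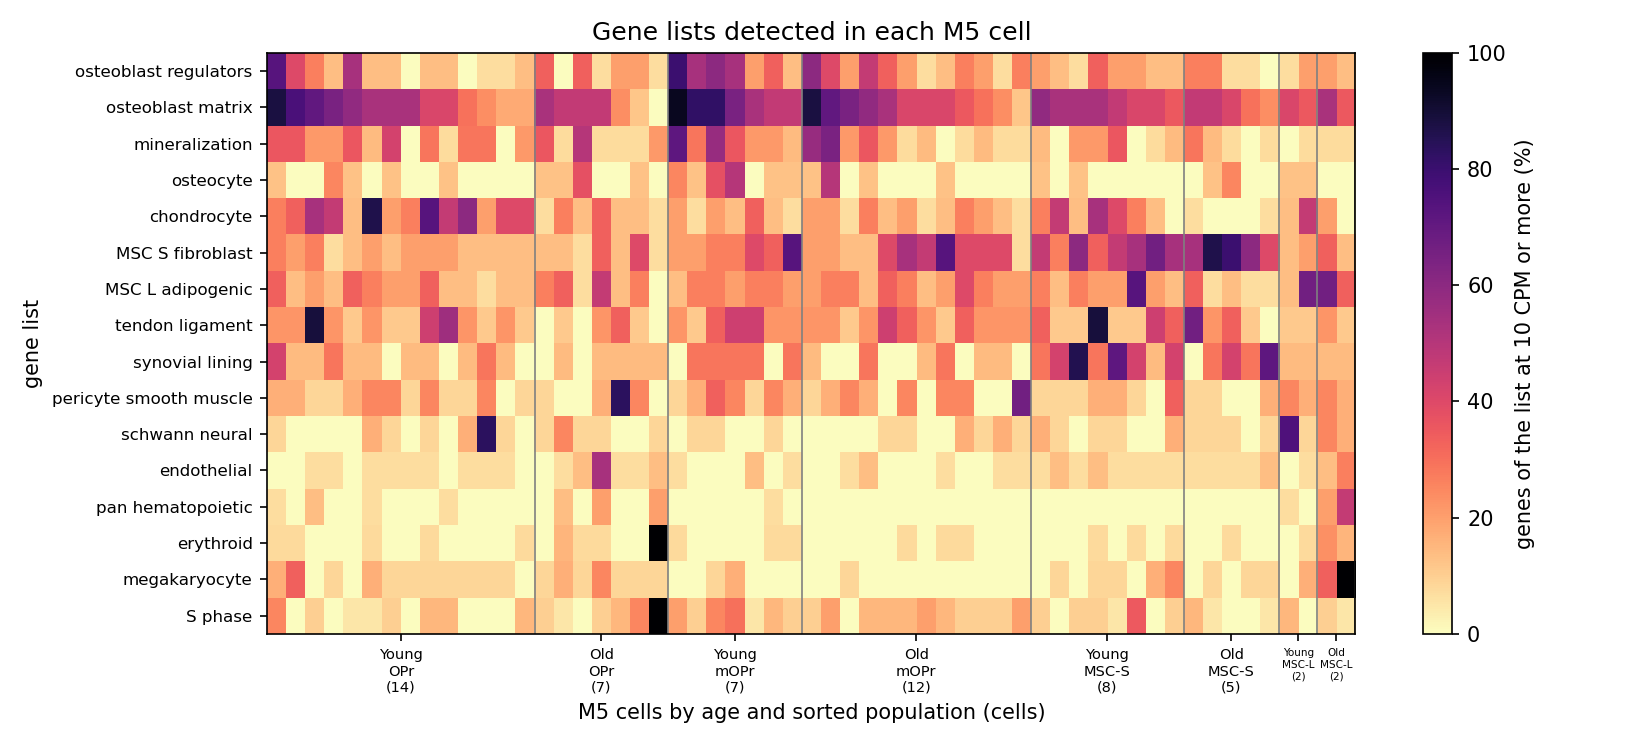
Each column is 1 M5 cell, grouped by age and sorted population, each row a gene list, and the colour is the percentage of the list's genes at 10 CPM or more in that cell. At least 50% of the bone matrix list was present in 24 cells, of the MSC-S fibroblast list in 11 and of the cartilage list in 5.

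**Figure D3:**
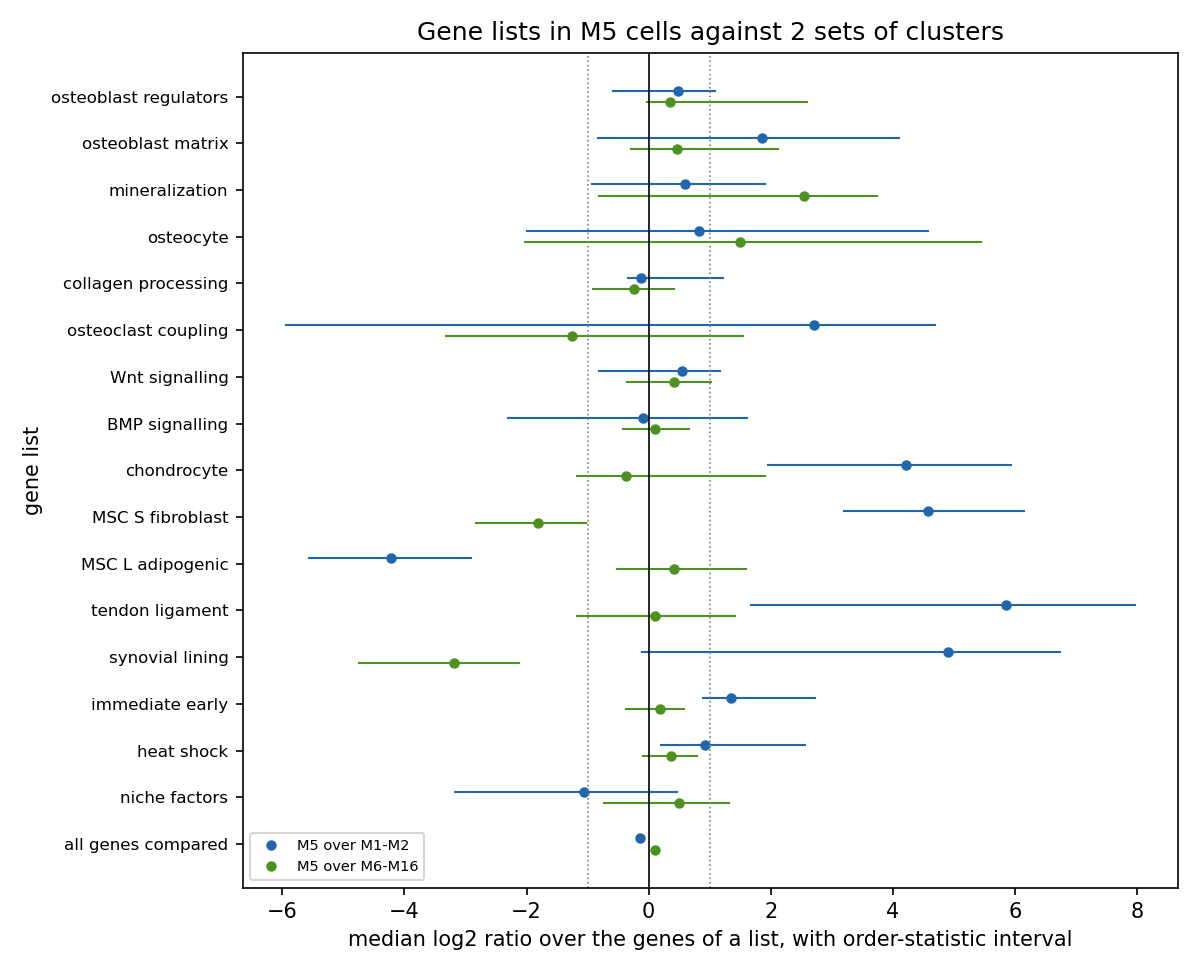
Points are the median log2 ratios of M5 over M1-M2 and of M5 over M6-M16 for each gene list, bars are order-statistic intervals over genes, and dotted lines mark -1 and 1. The fibroblast list lay at 4.57 against M1-M2 and at -1.81 against M6-M16, and the LepR+ stroma list at -4.22 against M1-M2.

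Besides these, 7 M5 cells reached 50% of a list of another lineage. Old MSC-L 3 had 12 of 12 megakaryocyte genes, which sum to 67517 CPM with Ppbp, a platelet chemokine, at 29641 CPM. Old OPr 28 had 13 of 13 erythroid genes at 12380.5 CPM, led by Slc4a1, the red cell anion exchanger, at 2082 CPM. The same cell had 20 of 20 S-phase genes, 17 of 20 genes of the G2 and M phases, 0 bone matrix genes and Col1a1 at 1.20 CPM. Old OPr 29 and Old mOPr 21 had 10 and 8 of 12 pericyte and smooth muscle genes, at 57543 and 36739 CPM. Their top gene was Acta2, a contractile actin, at 35338 and 19099.7 CPM. Young OPr 32 and Young MSC-L 39 had 10 and 9 of 12 Schwann and neural genes, at 23193 and 7838 CPM, led by Mbp, a myelin protein, at 9432 CPM and by Cdh19 at 1866 CPM. Old OPr 3, with 81239 nuclear counts, had 8 of 15 endothelial genes that sum to 111 CPM, or about 9 counts, with 0 of them at 50 CPM. It also had 8 of 17 bone matrix genes, at the same depth, where 1 count passes 10 CPM, with Col1a1 at 12.3 CPM. The rule thus counts it among the 7 cells, but its values do not show another lineage. What part these cells have in a group's values was not tested beyond the values without them.

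They set the levels of several lineage genes in M5. Acta2 was at 1721 CPM in 9 cells, against 4.79 in M1-M2 and 8.11 in M6-M16, with ratios of 8.22 and 7.56, and 6.82 and 6.17 without Old OPr 29, which held 63.1% of the counts. Mbp was at 307 CPM with ratios of 7.02 and 4.51, and 4.24 and 1.72 without Young OPr 32, which held 86.2%. The Schwann and neural list had medians of 4.94 and 4.40, with 10 of 11 genes called higher against each group, 0.11 and 0.08 in the first library-number range, and 0.02 and 0.17 without the 7 cells. The medians of the osteoblast lists were 0.99 and 0.75 without these cells. Col1a1 rose to 8229.5 CPM and Sp7 to 23.04 CPM when the 7 cells were left out. The 7 cells were picked by lists of other lineages and had Col1a1 at 1.20 to 108 CPM. The fall of the Schwann and neural medians and the rise of Col1a1 thus follow from the choice of cells.

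How alike M5 cells were was read from their profiles. By Pearson correlation across genes with the mean profile of each cluster, own cell left out, 41 of 57 M5 cells (71.9%, 58.5 to 83.03%) were nearest to M5. Of the others 6 were nearest to M12, 3 to M2, 3 to M16, 1 to M4 and 1 to M15. The pericyte-like pair, Old OPr 29 and Old mOPr 21, was nearest to the endothelial cluster E2. In the 11 other mesenchymal clusters of at least 5 cells this share ran from 0 of 5 cells in M6 and 0 of 7 in M8 to 100.0% in M3, M15 and M16. It was 68.0% in M2, 76.9% in M4, 80% in M9, 81.5% in M12, 93.0% in M1 and 93.3% in M7. The correlation of an M5 cell with its own cluster had a median of 0.521, from 0.241 in Old OPr 16 to 0.634 in Young mOPr 21. The medians of the 11 other clusters ran from 0.564 in M2 to 0.765 in M16. Genes are not independent replicates, so these correlations describe likeness.

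Single cells weighed more in M5 than in M1, M2, M12 and M16, the clusters in which this was counted. Among 4846 genes with at least 1000 counts in M5, 422 (8.71%) had over 50% of the counts in 1 cell. The share was 3.28% in M2, 4.27% in M12, 0.409% in M1 and 0.683% in M16. The top cell of a gene held a median of 24.5% of its counts in M5, 20.7% in M2, 20.3% in M12, 11.5% in M1 and 11.3% in M16.

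A comparison across genes asked what is higher or lower in M5 than in both groups. Of 16991 genes, 1479 were called higher than in both, or 8.70%, and 1296 lower, or 7.63%. Without the M5 cell with most counts of each gene, 331 were called higher and 3199 lower, a shift that removing counts from M5 alone has to give. Since the clustering used these genes, the counts describe M5 and test nothing. The genes named next had to hold in both library-number ranges and to have at most 50% of the counts in 1 cell, which 33 higher and 111 lower genes met.

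The 15 highest of the 33 were led by Bglap and Bglap2. After them came Col11a2, a fibrillar collagen of cartilage and bone, at 305 CPM in 16 cells with ratios of 6.22 and 3.64. Sorcs2, a sorting receptor for neurotrophins, was at 86.0 CPM in 16 cells with ratios of 4.89 and 2.84. Fat3, an atypical cadherin, was at 275 CPM in 16 cells with ratios of 2.83 and 4.46. These 3 genes were thus found in the same number of cells, without a count of shared cells being taken. Egr2, an immediate early transcription factor, was at 246 CPM in 21 cells with ratios of 5.20 and 1.87. Pdzd2, a protein with PDZ domains, was at 161 CPM in 23 cells with ratios of 3.99 and 1.71. Fam20c, the kinase that phosphorylates secreted proteins of bone and teeth, was at 195 CPM in 19 cells with ratios of 2.56 and 1.48, the second 0.89 without its top cell. It joins Omd, at ratios of 2.05 and 2.24, as a gene of mineralized matrix on the list. Myl9, a myosin light chain of smooth muscle, was at 662 CPM in 21 cells with ratios of 1.55 and 4.95. The first became 0.73 without its top cell and -0.93 without the 7 cells of other lineages. The remaining genes were Ppfibp2, a liprin of cell contacts, at 103 CPM in 20 cells, and Cdc34, a ubiquitin-conjugating enzyme, at 62.7 CPM in 22 cells. Rnf122, a ubiquitin ligase, was at 97.0 CPM in 15 cells and Filip1l, a cytoskeletal protein, at 111 CPM in 15 cells. Spata13 was at 68.4 CPM in 22 cells, and its ratio of 1.57 to M1-M2 became 0.97 without its top cell.

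The 10 lowest of the 111 started with Bmp6, at -4.80 against M6-M16. Slc35a5, a nucleotide sugar transporter, was at 0.396 CPM in M5, and the nearer of its 2 ratios to 0 was -3.96. Pla2g15, a lysosomal phospholipase, was at 1.63 CPM with -3.84 on the same measure. Lbp, which binds bacterial lipopolysaccharide, was at 56.1 CPM with -3.44. Most of these genes were thus at a few CPM in M5, with Lbp as an exception. Chst14, which sulfates dermatan chains, was at 7.85 CPM with -3.08. Fam135a stood at 3.77 CPM with -3.07 and Egfros, a non-coding RNA, at 2.10 CPM with -2.95. Cdk5rap3, a protein of the ufmylation pathway, was at 5.83 CPM with -2.85. Cbr3, a carbonyl reductase, was at 3.05 CPM with -2.73, and Slc35f6, a member of a transporter family, at 3.45 CPM with -2.71.

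Lists of cell state and of niche function were compared in the same way. Immediate early genes, which respond within minutes to outside stimuli, had a median ratio of 1.35 (0.89 to 2.72) against M1-M2, with 13 of 19 called higher. It was 2.16 and 1.10 in the 2 library-number ranges, and 0.98 without each gene's top cell. Against M6-M16 it was 0.18, with the sign reversed under size factors. Fos, a subunit of the AP-1 factor, was present in 50 of 57 M5 cells with a median of 2510.0 and a highest value of 53849 CPM. Its summed 9704 CPM gave ratios of 0.89 and 0.18, the second below 0 under the mean of cell CPM and under size factors. Atf3, a stress-induced factor, was at 1087 CPM in 31 cells, against 12.2 in M1-M2 and 1541 in M6-M16. The immediate early list reached 50% in 70.2% of M5, 36.8% of M1-M2 and 96.8% of M6-M16 cells. Heat shock genes, encoding protein chaperones, had medians of 0.92 and 0.37, and Hspa1a, an inducible one, was at 148 CPM in 22 cells with ratios of 2.55 and 1.34.

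Immune response lists split by comparison group. Interferon response genes had a median ratio of -0.84 against M1-M2 (5 of 23 called higher, 10 lower) and 1.21 (0.12 to 2.15) against M6-M16 (13 higher, 1 lower). In the 2 library-number ranges the second was 0.00 and 1.56, and without each gene's top cell it was 0.22. Antigen presentation genes had medians of -1.47 (0 of 13 called higher, 8 lower) and 0.73 (5 higher, 0 lower). B2m, the light chain of MHC class I, was present in 50 cells at 617 CPM, against 1882 and 473 CPM. H2-D1, a heavy chain of MHC class I, was present in 54 cells at 1244 CPM, against 6099 and 1389 CPM. Cytokine and inflammation genes had medians of 0.42 (9 of 21 called higher, 4 lower) and -0.09 (1 higher, 7 lower), or -0.08 and -1.24 without each gene's top cell. Il6, an inflammatory cytokine, was at 104 CPM in 9 M5 cells with ratios of 6.31 and -0.58, and 5.51 and -1.38 without Old mOPr 1, which held 43.9% of its counts. Ccl2, a monocyte chemokine, was at 88.5 CPM in 9 cells, with a ratio of 0.40 to M1-M2 that turned negative under the mean of cell CPM and under thinning. Its ratio to M6-M16 was -1.59, and 3.34 in the first library-number range. Il1r1, the receptor for IL-1, was at 86.8 CPM in 15 cells.

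Niche factors, through which stroma supports blood stem cells, were low in M5 beside M1-M2. The median ratio was -1.05 (4 of 17 called higher, 10 lower), and 0.50 against M6-M16 (5 higher, 3 lower), the second -0.54 without each gene's top cell. The list summed to 4044 CPM in M5, 51778 in M1-M2 and 2014 in M6-M16. Kitl, the stem cell factor, was at 34.3 CPM in 11 cells with ratios of -5.43 and 1.32, and -6.36 and 0.38 without its top cell. Angpt1, which quiets stem cells and vessels, was at 6.46 CPM, against 169.9 and 10.4 CPM. The niche list reached 50% in 0 of 57 M5, 86 of 136 M1-M2 and 1 of 124 M6-M16 cells.

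The main question of the study, the effect of age, was asked within M5 by comparing its 26 old with its 31 young cells. Of 10849 genes that passed the filter, 2780 were called higher in old cells, or 25.6%, and 2493 lower, or 23%. Values without top cells here leave out the cell with most counts of a gene in each age. Gate and age overlap within M5, with 7 old and 14 young OPr cells and 12 old and 7 young mOPr cells. Pooled ratios can therefore mix age and gate, and ratios within each gate are given for the lists and for the genes where they change the reading. Cell quality moved with age inside OPr. The median mitochondrial share was 2.83% in old and 5.62% in young OPr cells, with medians of 2993 and 2382.5 genes at 10 CPM. The age ratios within OPr were not separated from this. Size factors moved the all-gene median of 0.11 by 0.36 and thinning by 0.10.

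Of the 7 cells that reached another lineage's list, called cells of other lineages here, 5 are old, and Old OPr 3, 28 and 29 are 3 of the 7 old OPr cells, against Young OPr 32 among 14 young ones. The place of Old OPr 3 among them is weak, as noted above. The all-gene median without them was -0.03 over M5 and -0.45 among OPr cells.

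More osteoblast genes were called lower than higher in old M5 cells. The 41 genes compared had a median old over young ratio of -0.72 (-1.44 to -0.30), with 4 called higher and 18 lower. Their summed level was 23778 CPM among old and 39796 CPM among young cells. Mmp13 and Pth1r went the other way, at 2.13 and 0.71 taken without the added 1 CPM. The mineralization median, given below, changed sign under the other scalings. Over the 41 genes the median was -2.27 and -0.39 in the 2 library-number ranges, -2.67 among OPr and -1.46 among mOPr cells. Without the cells of other lineages it was -0.56 over M5, -2.37 among 4 old and 13 young OPr cells, and -1.48 among mOPr cells. The matrix list was lower still. Its median was -1.09 (-1.76 to -0.57), with 0 of 16 called higher and 9 lower, and -4.06 among OPr and -1.68 among mOPr cells. Without the cells of other lineages these were -0.79, -3.61 and -1.49. The list summed to 20764.9 CPM among old and 36443.7 CPM among young cells. In old OPr cells 1 of 7 reached 50% of the matrix list, in young OPr cells 8 of 14, and in mOPr cells 5 of 12 old and 5 of 7 young did. Old OPr 3, 16 and 24 had 8 of 17 genes, 1 short of the cut, while 0 young OPr cells had 8. At 8 genes 4 of 7 old and 8 of 14 young OPr cells would pass, an equal share, so the OPr counts by age depend on the cut. Old OPr 3 and 16 had 81239 and 57517 nuclear counts, where 1 count passes 10 CPM. The same holds for 2 cells that reached the cut with 9 genes, Young OPr 14 and Old MSC-L 39. They had 79352 and 96767 nuclear counts. Without the cells of other lineages the OPr counts at 50% were 1 of 4 old and 8 of 13 young. Over all M5 cells 26.9% of old and 54.8% of young cells reached 50% of the list. The thinned shares were 34.8% and 63.3%. At 50 CPM 4 old and 11 young cells reached it, and at 1 CPM 15 and 26.

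Single bone genes had their levels set by few cells in each age. Col1a1 was at 4592 CPM among old and 8913 CPM among young cells, a ratio of -0.96, and -1.06 without top cells, with 21 of 26 and 24 of 31 cells at 10 CPM. The ratio was -3.60 and -0.60 in the 2 library-number ranges, -4.01 among OPr and -1.01 among mOPr cells. Bglap was at 306 CPM in 6 old cells and 868 CPM in 13 young cells, with a ratio of -1.503, or -2.75 without top cells, -7.90 among OPr and -2.16 among mOPr cells. Ibsp went the other way at 829 and 652 CPM, a ratio of 0.35, or -0.46 without top cells, -0.44 among OPr and 1.61 among mOPr cells, with 11 old and 18 young cells at 10 CPM. Sp7 was at 9.94 CPM in 1 old cell and 27.4 CPM in 5 young cells, with a ratio of -1.38, or -3.70 without top cells, -4.05 among OPr and -1.81 among mOPr cells. Runx2 was nearly level at 197 and 192 CPM, a ratio of 0.04, but -1.53 without top cells, 0.79 among OPr and -1.69 among mOPr cells. Alpl was at 151 and 727 CPM, a ratio of -2.26, with -2.70 among OPr and -2.31 among mOPr cells. Spp1 was at 1456 and 2402 CPM, a ratio of -0.72, which was 1.53 among OPr and -1.999 among mOPr cells. Counted by label markers, old cells had 0 in 4 cells, 1 in 11, 2 in 6, 3 in 4 and all 4 in 1 cell. Young cells had 0 in 2 cells, 1 in 9, 2 in 12, 3 in 5 and all 4 in 3.

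Other programmes were compared between the ages of M5 as well. Cartilage genes had a median old over young ratio of -4.63 (-7.48 to -0.95), with 0 of 14 called higher and 11 lower. The median was -1.74 and -4.53 in the 2 library-number ranges, and -2.73 without top cells. It was -7.28 among OPr and -0.64 among mOPr cells, and -7.34 and -0.56 without the cells of other lineages. The list summed to 1051 CPM among old and 9812 CPM among young cells. Col2a1 was at 3.60 CPM among old and 508 CPM among young cells, a ratio of -6.79, or -5.89 without top cells. Comp was at 574 and 3992 CPM, and Chad at 165 and 3728 CPM. Tendon genes had a median of -2.76 (0 of 8 called higher, 7 lower), with -2.07 without top cells, -7.89 among OPr and -0.65 among mOPr cells. With the cells of other lineages left out these 2 were -9.54 and -0.45, and the pooled median -2.86. Wnt genes had a median of -0.99 (2 of 21 called higher, 10 lower), with -1.85 without top cells, -2.61 among OPr and -0.52 among mOPr cells. On leaving the same cells out these 2 were -3.76 and -0.97, and the pooled median -0.72. Lrp5 stood at 82.1 CPM among old and 351 CPM among young cells. The MSC-S fibroblast list had a positive median, 0.95, but the 4 of 14 genes called higher (1 lower) are a share close to the 25.6% of all genes, and its medians within OPr and mOPr were 0.41 and -0.32. Regulators had a median of -0.46 (0 of 13 called higher, 5 lower), with -1.23 among OPr and -1.46 among mOPr cells and -0.21 without the cells of other lineages. Collagen-processing genes were at -0.45, with -1.13 and -0.68 in the 2 gates and -0.39 without those cells. Of 14 such genes 0 were called higher and 2 lower, smaller shares than the 25.6% and 23% of all genes, so no difference by age is read from them. Niche factors were at -0.60 (2 of 14 called higher, 6 lower) and -0.99 without those cells, but at 0.10 among OPr and 0.65 among mOPr cells, so the pooled value gives no direction by age. Osteoclast-coupling genes were at -2.27 over 6 genes, at -0.55 without top cells, and at -1.96 and -1.15 in the 2 gates. For niche factors the median was 0.64 and -1.32 in the 2 library-number ranges.

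Most genes of the cytokine list that were compared were called higher in old M5 cells. The cytokine list had a median of 1.46 (-0.08 to 3.05), with 10 of 15 called higher and 1 lower. The median was 1.44 and 1.57 in the 2 library-number ranges, 3.65 among OPr and 1.01 among mOPr cells, and 0.98 without top cells. Without the cells of other lineages it was 1.94 over M5, 1.502 among OPr and 1.20 among mOPr cells. Among OPr cells this step left 4 old cells and also moved the all-gene median, from 0.13 to -0.45. The list summed to 5430 CPM among old and 1601 CPM among young cells. Cxcl1, a neutrophil chemokine, was at 1740.1 CPM in 12 old cells and 209.6 CPM in 5 young cells, and Old OPr 23 held 42.8% of its counts. Il6 was at 184 CPM among old and 35.5 CPM among young cells, a ratio of 2.34, and 5.24 without top cells. Ccl2 was at 190.0 CPM among old and 1.11 CPM among young cells, a ratio of 6.502. It had 0 counts in OPr cells, so this ratio rests on the other gates. Nfkbiz, an inducible partner of NF-κB, was at 1046 and 224 CPM. Il1r1 went the other way, with a ratio of -1.71 taken without the added 1 CPM. Among mOPr cells alone the ratios were smaller for Cxcl1 (1.15), Il6 (0.81) and Nfkbiz (0.87). These values come from cells under the Il1b cutoff, and the hematopoietic markers of the same cells are given above.

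Interferon response genes had a median old over young ratio of 1.00 (0.19 to 2.18), with 9 of 18 called higher and 2 lower. It was 1.78 and 1.04 in the 2 library-number ranges, 1.73 without top cells, 1.46 among OPr and 2.68 among mOPr cells. Without the cells of other lineages it was 1.06 over M5, 0.69 among OPr and 2.87 among mOPr cells. The list summed to 3158 CPM among old and 937 CPM among young cells. Irf1, a transcription factor induced by interferon, was at 1775 CPM among old and 389.7 CPM among young cells. Gbp2, an interferon-induced GTPase, was at 525 CPM in 9 old cells and 6.71 CPM in 1 young cell, and Old mOPr 26 held 60.2% of its counts. Antigen presentation genes had a median of 0.28 (2 of 10 called higher, 1 lower) and immediate early genes one of 0.55 (7 of 19 called higher, 1 lower). The medians of mineralization (-0.24), BMP (-0.14) and heat shock genes (-0.19) turned positive under size factors and under thinning, and that of mineralization genes also under the mean of cell CPM. Cxcl12 showed how far 1 cell can reach. Its 443 CPM among old and 1333 CPM among young cells gave a ratio of -1.59, but 0.15 without top cells, which for young cells is Young MSC-L 21, and 3.34 in the first library-number range and 3.26 among mOPr cells.

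**Figure D4:**
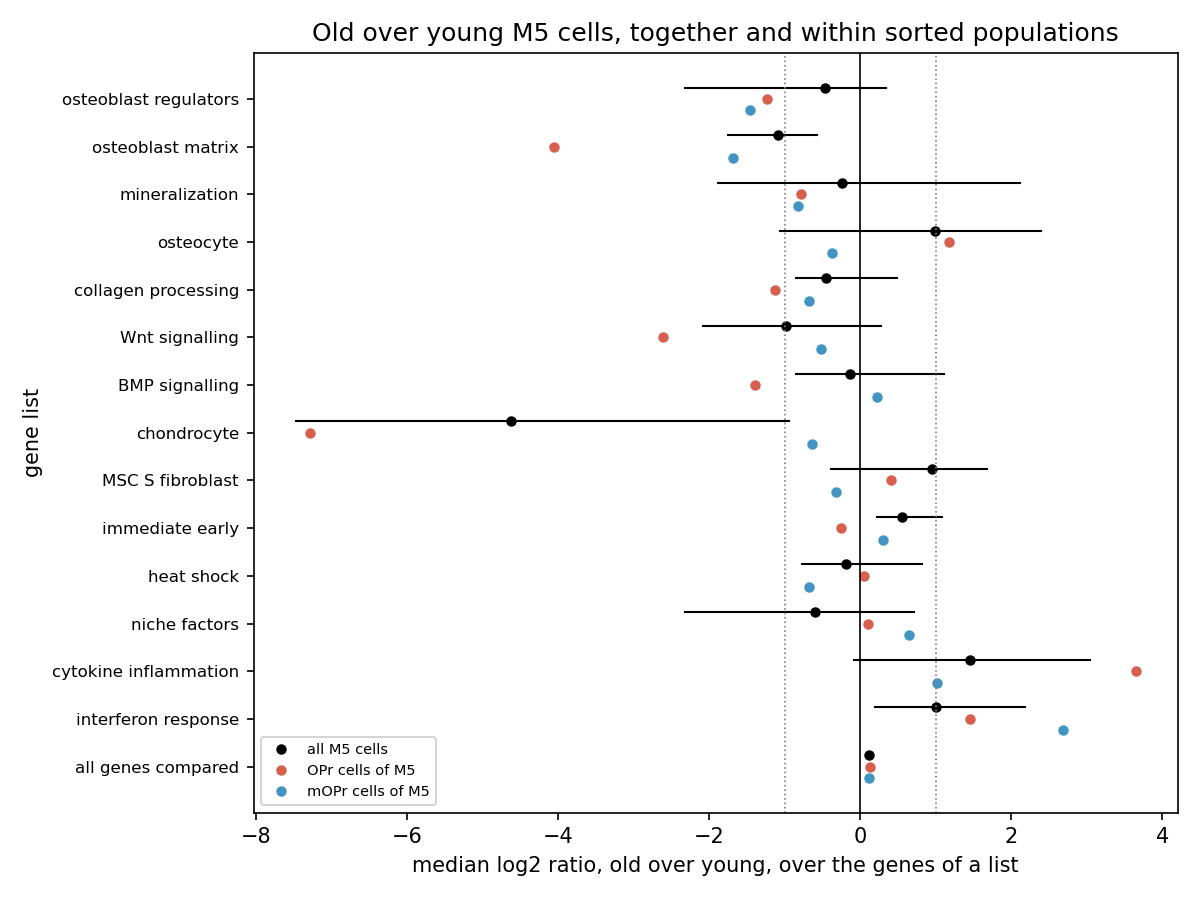
Points are median log2 old over young ratios of each gene list over all M5 cells, OPr cells alone and mOPr cells alone, with order-statistic intervals over genes for all M5 cells. The cytokine list was at 1.46 over all cells, 3.65 in OPr and 1.01 in mOPr cells, and the bone matrix list at -1.09, -4.06 and -1.68.

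The named genes higher in old cells were the 10 highest of 251 that met the rule, and the lower ones the 10 lowest of 205. Without top cells the 10 higher ratios ran from 4.26 to 6.71. With all cells of each gate kept, the ratio was past 1 or -1 in the same direction within OPr and within mOPr cells for all of the 20 but Scara5. B4gat1, a glucuronyltransferase that builds the sugar chain of dystroglycan, was at 112 CPM and 2.29 CPM in old and young cells, a ratio of 5.10. Scara5, a ferritin receptor of fibroblasts, was at 503.5 and 14.0 CPM, a ratio of 5.07, but 0.83 among OPr cells, which is not called, and 3.98 among mOPr cells. Nov (Ccn3), a matricellular protein, was at 334.5 and 12.9 CPM, a ratio of 4.59. Atp8a1, a lipid flippase, had a ratio of 4.69, and Dcbld2, a membrane receptor, one of 4.12. Prosc, a binding protein for vitamin B6, had a ratio of 4.60, and Nae1, a subunit of the NEDD8-activating enzyme, one of 4.41. Trap1 and Clpp, a chaperone and a protease of mitochondria, had ratios of 4.40 and 3.91, the first of which was -1.30 among OPr cells without those of other lineages, and Inafm2, a small membrane protein, one of 4.31. Among genes lower in old cells, Acan had 5 counts, 0.428 CPM, in old and 254 CPM in young cells, a ratio of -7.48. Prmt2, an arginine methyltransferase, had 0 counts in old and 148 CPM in young cells, at least 576-fold lower against 3 counts over the old cells. Rbp4, the retinol carrier, had 2 counts in old and 134 CPM in young cells, with a ratio of -9.61 (-12.66 to -7.76) taken without the added 1 CPM. Fgfr2, a growth factor receptor of bone progenitors, was at 4.63 and 216 CPM, a ratio of -5.27. Fat3 was at 12.1 and 502 CPM, a ratio of -5.26, and 12 of its 16 cells were young. Myof, a membrane repair protein, had a ratio of -7.06, and Camk4, a calcium-dependent kinase, one of -6.25. Zfp511, a zinc finger protein, was at -6.07, Galnt10, a sugar transferase, at -5.36, and the transcript 9430020K01Rik at -5.13.

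The last comparison asked whether the gate, PDGFRα- OPr or PDGFRα+ mOPr, goes with a difference inside M5. Pdgfra itself was at 27.1 CPM in 5 of 21 OPr cells and at 921 CPM in 15 of 19 mOPr cells. Of 9718 genes compared, 2592 were called higher in OPr, or 26.7%, and 2376 lower, or 24.4%. Values without top cells leave out the cell with most counts of a gene in each gate. Cell quality also moved with the gate, since the median mitochondrial share was 3.15% in OPr and 1.41% in mOPr cells, at most 13.1% and 4.501%, and the median cell had 2634 and 3298 genes at 10 CPM. The differences that follow, that of immediate early genes included, were not separated from this. Other scalings moved the all-gene median of 0.03 by -0.45 (mean of cell CPM), -0.71 (size factors) and -0.25 (thinned counts). The osteoblast lists had a median OPr over mOPr ratio of -0.96 (-1.47 to -0.41), with 4 of 41 called higher and 19 lower. It was -2.13 among old and -1.01 among young cells. Of the 7 cells of other lineages 4 are OPr and 1 is mOPr, and without the 7 it was -0.73, beside -0.12 over all genes compared. In the first library-number range it was 0.12, where the all-gene median was -1.07, and in the second -1.57, where that was 0.22. The only OPr cells of M5 in the first range were Old OPr 3 and 10 and Young OPr 7 and 11. First-range values by gate therefore rest on few cells. The matrix list was at -1.12 (-2.09 to -0.86), with 1 called higher and 9 lower, and at -0.84 without those cells, but at 0.42 in the first range. It summed to 17926.9 CPM in OPr and 47196.4 CPM in mOPr cells.

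Among label markers, Col1a1 was at 4279 CPM in OPr and 11769 CPM in mOPr cells, a ratio of -1.46. Leaving out the cells of other lineages gave -1.18, and the ratios of Bglap, Sp7 and Ibsp were -2.60, -1.27 and -1.82. The Col1a1 ratio was -4.38 among old and -1.38 among young cells, and 2.31 in the first range. Bglap was at 189 and 1394 CPM, a ratio of -2.88, or -4.21 without top cells, and Sp7 at 12.6 and 38.1 CPM, a ratio of -1.52. Ibsp was at 261 and 1116 CPM, a ratio of -2.09, which was -1.25 without top cells and 1.72 in the first range. Spp1 followed them at 334 and 4525 CPM, a ratio of -3.76, or -4.42 without top cells. Runx2 went the other way, at 357 CPM in OPr and 116 CPM in mOPr cells, a ratio of 1.61, or 1.03 without top cells. It was present in 9 of 21 OPr and 9 of 19 mOPr cells. Alpl was at 545 and 524 CPM, a ratio of 0.06 that turned negative under each of the 3 other scalings. Within M5, OPr cells thus had less of the 4 label markers than mOPr cells in the pooled counts. In the first range, with its few OPr cells, they had more Col1a1 and Ibsp.

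Outside bone genes, the MSC-S fibroblast list was lower in OPr than mOPr cells of M5, with a median of -2.30 (-4.26 to -0.79) and 0 of 12 called higher and 9 lower. It was -2.21 among old and -3.13 among young cells, -5.02 and -1.87 in the 2 library-number ranges, -3.30 without top cells, and -2.43 without the cells of other lineages. The list summed to 9040 CPM in OPr and 41407 CPM in mOPr cells. Dcn was at 5862 and 24459 CPM, a ratio of -2.06. Clec3b had 1 count in OPr cells and 66.3 CPM in mOPr cells, with a ratio of -9.36 (-14.67 to -6.88) taken without the added 1 CPM. Immediate early genes were also lower in OPr, with a median of -1.70 (-2.18 to -0.97) and 0 of 19 called higher and 14 lower. It was -1.77 among old and -1.47 among young cells and -3.47 and -1.58 in the 2 ranges, with sums of 13084 and 44154 CPM. Fos was at 3879.9 CPM in OPr and 17632 CPM in mOPr cells, and Jun, its partner in AP-1, at 465 and 3159 CPM. For cytokine genes the median was -0.94 (5 called higher, 6 lower) and -2.34 without the cells of other lineages, but -5.29 and 1.69 in the 2 ranges. It was -0.78 for interferon genes (3 of 16 higher, 6 lower) and -1.12 for niche factors (1 of 13 higher, 7 lower). It was -0.83 for regulators (2 higher, 6 lower), -0.90 for collagen-processing genes (0 higher, 5 lower), -0.27 for mineralization genes and -0.51 for heat shock genes (0 higher, 4 lower). Cartilage genes had a median of 0.56, with 6 of 13 called higher in OPr and 0 lower, but -0.40 among old cells. That median is smaller in size than the all-gene shift of -0.71 under size factors. Comp went the other way, at -0.96 without the added 1 CPM, short of the call. Wnt genes were at 0.78 (6 of 17 higher, 3 lower), but at -1.48 among old and -0.25 among young cells and below 0 under size factors. BMP genes were at 0.24, with the sign reversed under each of the 3 other scalings.

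The 5 genes named in each direction met a rule that 198 higher and 342 lower genes passed. Smoc1, a secreted calcium-binding protein, was at 95.2 CPM in OPr cells with 2 counts in mOPr cells, a ratio of 8.82 (6.96 to 11.87) without the added 1 CPM. Hspa14, a ribosome-associated chaperone, was at 114 and 1.16 CPM, a ratio of 5.74. Naa25, a subunit of an N-terminal acetyltransferase, was at 100.2 and 1.48 CPM, a ratio of 5.35. Pnn, a splicing-associated protein, had a ratio of 5.00, and Cmas, which activates sialic acid, one of 4.90. The other 5 were lower in OPr cells. Gpc3, a cell surface proteoglycan, had 0 counts in OPr and 625 CPM in mOPr cells, at least 2068-fold lower against 3 counts over the OPr cells. Ccl11 (eotaxin), an eosinophil chemokine, had 2 counts in OPr and 656 CPM in mOPr cells, with a ratio of -11.67 (-14.72 to -9.82) without the added 1 CPM. Efemp1, an elastic fibre protein, was at 0.403 and 748 CPM, a ratio of -9.06, but -0.48 among young cells alone. Fbln2, another protein of elastic fibres, was at 0.504 and 518 CPM, a ratio of -8.43. Scara5 was at 0.705 and 455 CPM, a ratio of -8.06, so its pooled ratio by age mixes age with gate. Ccl2, likewise high in old cells, had 0 counts in OPr and 233 CPM in mOPr cells, at least 772-fold lower.

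The guide genes through which the study ordered its clusters form 6 blocks, and the study chose them on these same cells. Against the 289 other mesenchymal cells without M5's own label, the median M5 ratios of the blocks, in order, were -1.81, -2.27, -1.93, -1.07, -1.10 and -0.63. M5 ranked between the third and the eighth of 12 clusters by these blocks and was highest in 0 of the 6. M1, M3, M4, M16 and M7 were highest in them, M4 in 2. M5 was thus set apart by no block of its own among these genes.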

How the data were processed

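Nuclear-gene counts of 354 mesenchymal and 307 endothelial plate-sorted cells were taken from the table of counts that the authors deposited, which the submitters' notes describe as GSNAP 2015-09-29 alignments to GRCm38.p4 counted with HTSeq. The table has 46078 rows. The 270 repeated symbols were summed, which gave 45771 nuclear and 37 mitochondrial genes. Groups came from the labels, with M5 cells at 1000 CPM of Il1b or more left out. Members and gene lists were chosen with earlier results of these data known. Genes compared had 100 counts over the sets and were found in at least 5 cells, with a pseudocount of 1 CPM. The 37 lists held 2 symbols without a row, Ahsp and Ly76. The values of 1 list gene are not reported here. Named genes were the label markers and list genes, and the 15 highest and 10 lowest in M5, the 10 highest and lowest by age, and the 5 highest and lowest by gate. These needed at least 1000 counts, 25% of cells at 10 CPM, at most 50% of counts in 1 cell, and the same call in both library-number ranges. Alternatives tried were mean cell CPM, size factors (over 13 genes detected in every cell), thinning, library-number ranges, other members, pseudocount and filter. The plan's wording, 100 counts in at least 5 cells, can also be read as 100 counts in each of 5 cells. That reading, leaving out the 7 cells of other lineages, and single gates or ages were added as alternatives after seeing the data. No tests were made. The code ran on Python 3.11.15 with pandas 2.3.3 over numpy 2.4.6, intervals came from scipy 1.17.1 and plots from matplotlib 3.10.9, and it was tested on simulated data.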

Additional observations from a re-analysis of the deposited data

Results flagged for a closer look

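Of the 8 cells left out of M5, 7 carried a signal that the comparisons do not use. S100a9, a calcium-binding protein of neutrophils, stood at 16118 CPM over the 8 cells, and its partner S100a8 at 8765 CPM. The eighth, Old OPr 17, had S100a9 at 2.64 and S100a8 at 1.76 CPM. The 2 pooled levels were above the level that 3 counts over the 8 cells would give. They were picked out for that reason, as values of cells outside the comparisons, and their source was not tested.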

How the results depend on the processing

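No paired analysis was possible because the labels name no mouse for a cell. The medians of the osteoblast lists stayed above 0 under each alternative, from 0.27 to 0.99 against M1-M2 and from 0.14 to 1.06 against M6-M16. Reversed here means that a value past 1 or -1 changed sign, so sign changes of smaller values, which the report gives, are not counted. Of 167 values of main results under alternatives, 112 kept within their interval or within 1.5 times the main count, 55 moved and 0 reversed. For list medians the same numbers were 897, 78 and 3 of 978, for single genes 431, 1297 and 14 of 1742, and for cells per list 46, 26 and 0 of 72. The filters give no value for single genes, and neither they nor the pseudocount do for marker levels. The levels of Col1a1, Bglap, Ibsp and Sp7 were 6914, 608, 734 and 19.3 CPM. Under the mean of cell CPM the first 3 were 8410.3, 643 and 855 CPM. Under size factors the 4 were 4222, 344, 531 and 13.9, and under thinning the first 3 were 9046, 692 and 925. In the first library-number range they were 2903, 324, 329 and 25.7, and in the second 8481, 719, 892 and 16.9. With all 65 cells they were 5703, 502, 606 and 16.0. Leaving out instead cells with at least 7 hematopoietic markers gave 7018 for Col1a1. Without each gene's top cell they were 4928, 320.2, 482 and 14.7, and without the 7 cells of other lineages 8229.5, 724, 871 and 23.04. Of the 1479 genes higher and 1296 lower in M5 than in both groups, size factors gave 1979 lower, the first range 3124 lower, and a pseudocount of 0.1 2091 lower. Leaving out top cells gave 331 higher and 3199 lower, and 100 counts in each of 5 cells gave 445 higher and 694 lower, with fewer genes compared. By age, against 2780 higher and 2493 lower, no filter gave 4586 and 4348, the stricter filter 554 and 449, and OPr cells without those of other lineages 4625 lower. By gate, against 2592 higher and 2376 lower, size factors gave 1559 and 3975, no filter 5088 and 4364, the stricter filter 369 and 480, and the first range 4961 lower. In the first range 62.5% of M5 cells were old and 50% were nearest to M5, while other alternatives gave 39.02 to 52.3% and 69.6 to 77.2%. At 1 CPM 18 cells reached another lineage's list and 41 the matrix list, and at 50 CPM 15 reached the matrix list. Reversed under the stricter filter were the medians of osteoclast-coupling genes against M1-M2 (-4.56) and of osteocyte genes against M6-M16 (-0.26). Reversed in the first range were the matrix median by gate (0.42), Runx2 against M1-M2 (0.41), Col1a2 against M6-M16 (-0.22), Ccl2 against M6-M16 (3.34), Cxcl12 by age (3.34), and Col1a1 (2.31) and Ibsp (1.72) by gate. Reversed without top cells were Mepe against M1-M2 (-1.92) and M6-M16 (-0.052) and Cxcl12 by age (0.15). Cxcl12 by age was 3.26 among mOPr cells alone and, without the cells of other lineages, 0.44 among OPr and 3.45 among mOPr cells, where Trap1 among OPr cells was -1.30, and Myl9 against M1-M2 was -0.93 without the 7 cells. The cause was not tested. Depth limits the reading of low genes, since 7 cells of the series had under 100000 counts and the number of genes found per cell moves with depth. Mice, plates and sorting days are not in the labels and cannot be told apart from the groups. Pooled levels follow the cells with most counts, as the top-cell shares show. The intervals hold counting error alone.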
